A study of Homo sapiens with 25 samples.

Results

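The presence of dimethylated lysine 4 of histone H3 (H3K4me2) was compared between definitive endoderm and the foregut stages made from it. The comparison used 4 of the 25 samples of the series. These were both H3K4me2 libraries of definitive endoderm (hDE replicates 1 and 2), the single library of anterior foregut endoderm (hAFE) and the single library of pharyngeal foregut endoderm (hPFE), with both foregut stages pooled into 1 group of 2. All cells came from the established human line H1, embryonic stem cells (hESC), by directed differentiation through hDE and hAFE to hPFE. The agents and days of the protocol were not given in the sources used here. The measurement was chromatin immunoprecipitation with sequencing, and the values were the peaks deposited for each library. A gene or region was called gained when both foregut libraries had a peak and neither hDE library had one, and lost in the reverse case.

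H3K4me2 is placed by MLL/SET1 methyltransferases at promoters and enhancers, and it marks enhancers that are active as well as those that are primed. H3K27ac, acetylated lysine 27 of the same histone, marks active promoters and enhancers, and H3K27me3, its trimethylated form, marks genes held silent by Polycomb. Definitive endoderm forms under Nodal signalling and relies on EOMES, SOX17, FOXA2 and GATA factors. Its anterior part forms the pharynx, the source of thymus, parathyroid and thyroid, in which retinoic acid, Hedgehog, FGF and BMP signals and genes such as TBX1, EYA1 and PAX9 act.

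Gene ends were windows of 1 kb on either side of each annotated end, on chromosomes 1 to 22 and X. Of 19974 protein-coding genes, 130 were gained and 192 were lost. Distal regions were overlapping peaks of the 4 libraries joined together that lay over 2 kb from every gene end. Of 166044 distal regions, 3081 were gained and 9253 were lost. Over all 59098 annotated genes, 427 ends were gained (0.723%) and 758 lost (1.28%). These calls set 2 libraries against 2 and carry no test. The foregut group joins 2 stages while the hDE group is 1 stage taken in 2 libraries, so a mark that moved between hAFE and hPFE could be neither gained nor lost. How far this set the excess of losses over gains cannot be told apart from a difference between hDE and foregut.

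Promoters and microRNAs at which the mark was gained or lost are shown first. The promoter windows run from 250 bases before to 50 bases after an annotated start, 5′ to 3′ on the gene's strand, from RefSeq on GRCh38.p14. Among named genes, CDH9 (a type II cadherin), CCDC141 (a coiled-coil protein) and NEUROG1 (a sensory neuron regulator) were the ones whose whole window lay inside an hDE peak, and all 3 were lost. CLDN4, a tight-junction claudin and a gained gene, was added after its values were seen because peaks of both foregut libraries overlapped its window. The same held for the gained genes BORCS7, ZSCAN31 and H2BC3, whose windows are not printed. Capitals mark matches, on either strand, to 16 short motifs. These windows lie at chr7:73830746-73831045 on the plus strand for CLDN4, and on the minus strand at chr2:179050088-179050387 for CCDC141, chr5:135535915-135536214 for NEUROG1 and chr5:27038537-27038836 for CDH9.
CLDN4: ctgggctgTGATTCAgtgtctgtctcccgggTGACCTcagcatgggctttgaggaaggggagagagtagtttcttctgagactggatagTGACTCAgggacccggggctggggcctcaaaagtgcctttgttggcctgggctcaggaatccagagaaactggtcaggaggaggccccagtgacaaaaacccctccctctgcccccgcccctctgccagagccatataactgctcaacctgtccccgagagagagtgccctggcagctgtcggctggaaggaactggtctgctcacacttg
CCDC141: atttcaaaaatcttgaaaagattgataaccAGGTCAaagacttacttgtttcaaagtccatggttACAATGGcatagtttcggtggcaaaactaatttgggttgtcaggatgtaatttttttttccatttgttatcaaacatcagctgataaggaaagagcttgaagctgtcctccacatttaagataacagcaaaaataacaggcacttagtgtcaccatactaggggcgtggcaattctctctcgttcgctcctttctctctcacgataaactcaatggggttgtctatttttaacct
NEUROG1: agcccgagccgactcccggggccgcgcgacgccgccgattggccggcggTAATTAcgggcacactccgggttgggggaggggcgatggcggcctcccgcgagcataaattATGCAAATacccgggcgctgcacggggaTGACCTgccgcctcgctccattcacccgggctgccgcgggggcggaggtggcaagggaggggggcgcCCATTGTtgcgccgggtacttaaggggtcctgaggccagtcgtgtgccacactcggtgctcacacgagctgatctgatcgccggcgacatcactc
CDH9: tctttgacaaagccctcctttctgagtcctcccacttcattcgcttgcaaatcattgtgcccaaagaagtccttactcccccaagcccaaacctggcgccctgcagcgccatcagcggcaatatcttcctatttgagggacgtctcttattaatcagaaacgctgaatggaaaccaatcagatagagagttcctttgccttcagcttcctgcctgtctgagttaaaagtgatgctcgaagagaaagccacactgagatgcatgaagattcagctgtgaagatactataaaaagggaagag
The CLDN4 window holds 2 matches to AP-1 (TGANTCA) and 1 to the nuclear receptor motif (AGGTCA). The windows of BORCS7, ZSCAN31 and H2BC3 hold no match to AP-1. The CCDC141 window holds the AGGTCA motif and a SOX motif (ACAATGG). The NEUROG1 window holds both of these, the octamer (ATGCAAAT) and a homeodomain motif (TAATTA), and the CDH9 window holds none of the 16. Over the promoters matched, with classes taken from the gene-end calls, AP-1 occurred in 10.3% of 97 gained, 7.5% of 134 lost and 5.8% of all 15812 windows. AGGTCA occurred in 15.5%, 11.2% and 11.7% in the same order. The SOX motif went the other way, with 3.1%, 6.7% and 2.4%, as did TAATTA with 3.1%, 7.5% and 3.3%. The octamer stood in 3.1%, 3.0% and 1.7%. These are letter matches that describe the windows, and no test was made on them.

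The CpG content of the classes depended on where the mark was called. With the gene-end calls, the ratio of observed to expected CpG in the promoter window had a median of 0.29 in gained (quartiles 0.15 and 0.61) and 0.44 in lost genes (0.20 and 0.80). It was 0.84 in the 10553 genes marked in all 4 libraries and 0.25 in the 3347 marked in none, and 25.8, 40.3, 85.9 and 17.6% had a ratio of 0.6 or more in the same order. A gene-end call can rest on a peak at the other end of the gene or up to 1 kb away, so it is not a call on the promoter itself. When the 300-base window was called instead, which was chosen after seeing the data, 348 of 15812 windows were gained (2.2%) and 329 lost (2.08%). The median ratio was then 0.83 in gained, 0.82 in lost, 0.80 in the 3147 windows marked in all 4 libraries and 0.49 in the 7214 marked in none. A ratio of 0.6 or more was found in 83.3, 76.9, 83.6 and 45.9% in that order. The low CpG content of gained and lost genes was thus seen with the gene-end calls. The classes called on the window did not show it, but they hold mostly other genes. Only 97 gained and 134 lost gene ends had a matched promoter, against the 348 and 329 windows called. Of the 4 promoters printed, NEUROG1 had a ratio of 0.99 and the others had 0.19 for CLDN4, 0.44 for CDH9 and 0.47 for CCDC141.

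**Figure D1:**
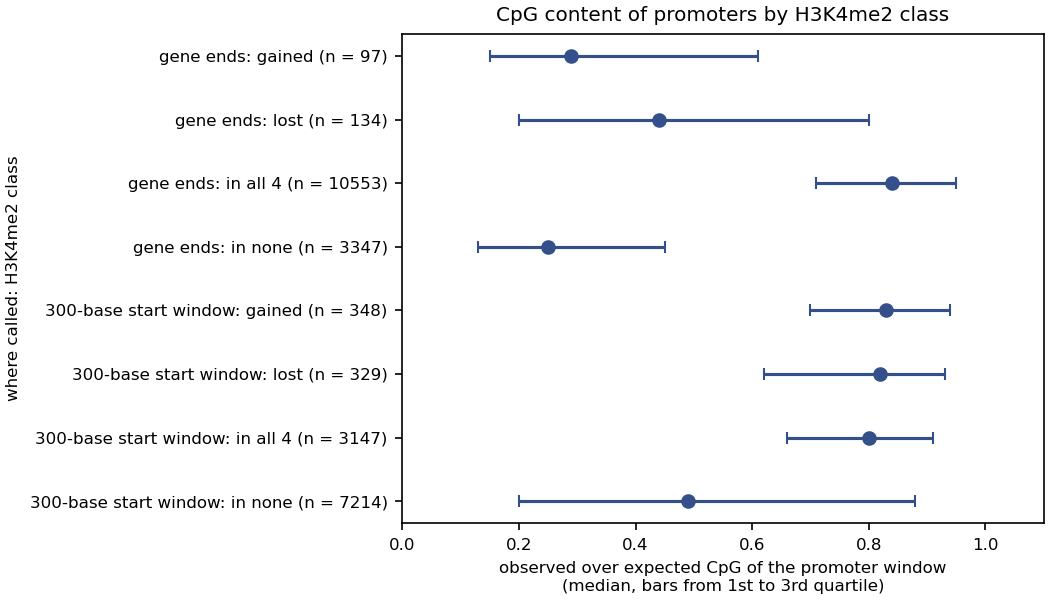
Observed over expected CpG of the 300-base promoter window (x axis, no unit) by where H3K4me2 was called and its class (y axis); points are medians and bars run from the lower to the upper quartile. With gene-end calls, gained (0.29) and lost (0.44) genes lie below those marked in all 4 libraries (0.84), and with calls on the window itself the 3 classes lie at 0.83, 0.82 and 0.80.

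MicroRNA genes were 1.26% gained (24 of 1911) and 1.62% lost (31 of 1911), counted by the same windows as other genes. The ones described were chosen after their values were seen. The mature microRNAs of interest are given with the seed, bases 2 to 8, in capitals, from RefSeq.
hsa-miR-205-5p: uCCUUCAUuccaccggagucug
hsa-miR-203a-3p: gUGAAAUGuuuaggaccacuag
hsa-miR-302b-3p: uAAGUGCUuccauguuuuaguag
hsa-miR-302c-3p: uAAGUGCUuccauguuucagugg
hsa-miR-302d-3p: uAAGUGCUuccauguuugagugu
hsa-miR-367-3p: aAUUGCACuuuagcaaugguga
hsa-miR-196b-5p: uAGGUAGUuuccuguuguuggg
MIR205 and MIR203A, known for their roles in epithelia, were gained. The deposited fold enrichment of the strongest peak was 4.95 in hAFE and 7.74 in hPFE at MIR205, and 5.17 and 4.37 at MIR203A. Both genes also had H3K4me2 in both hESC libraries (3.95 and 1.97 at MIR205, 4.12 and 8.15 at MIR203A). The MIR200 family did not share the gain. MIR200C and MIR141 were marked in all 4 libraries, MIR200B in none, and MIR200A and MIR429 in hPFE alone (2.75). MIR203A also carried H3K27me3 in hESC (5.57 and 10.5), hDE (6.65 and 8.64), hAFE (7.51) and hPFE replicate 2 (3.69), so that mark did not separate the stages there. The MIR302 cluster on chromosome 4, a microRNA cluster typical of pluripotent cells, was lost in part. MIR302B and MIR302C, which share the seed AAGUGCU and a pair of peaks, had 3.65 and 4.17 in hDE replicates 1 and 2, and MIR367 had 3.23 and 2.68. MIR302D had a peak only in hDE replicate 2 (2.68) and MIR302A had none in the 4 libraries. H3K27ac at MIR302B was 9.50 and 10.9 in hESC and 18.6 and 21.8 in hDE, with no peak in any of the 4 foregut H3K27ac libraries. MIR196B, which lies in the HOXA cluster and shares the peaks of HOXA10, was also lost (4.05 and 5.84).

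The 4 libraries were close in size. The hDE libraries held 87357 and 105065 peaks, the hAFE library 98376 and the hPFE library 89059, over 34.6 to 37.3 Mb, and marked 70.0 to 71.7% of protein-coding genes. The read depth behind them is unknown, so a missing peak is no proof of a missing mark, and a mark in fewer cells cannot be told apart from a weaker mark in each cell. Base pairs shared by 2 libraries, as a share of those covered by either (the Jaccard index), came to 0.427 for the hDE pair and 0.319 for hAFE with hPFE. The 4 pairs across the groups gave 0.304 to 0.319. The hAFE and hPFE libraries were thus no closer to each other than hAFE was to its nearest hDE library. The mean within groups exceeded that between groups by 0.0621 (0.373 against 0.311, exact permutation test over the libraries, one-sided p = 0.333). That is the smallest p that 2 against 2 libraries allow. No label states that replicates were grown as separate cultures, so each p measures only the spread between these samples.

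The labels were checked against markers at gene ends, of which a part is given here. The foregut markers SOX2, FOXA2, TBX1, PAX9, PAX1, NKX2-3 and HOXA3 are not reported here. Neither are the endoderm markers CXCR4 and CER1 and the mesoderm marker TBX5. Of the foregut markers, the values given thus cover ISL1 alone. EOMES, the T-box factor that specifies endoderm, had H3K4me2 in all 4 libraries (9.73 and 8.17 in hDE, 6.11 in hAFE, 6.67 in hPFE). Its H3K27ac was 19.0 and 21.3 in hDE with no peak in foregut. SOX17, an endoderm regulator, had H3K4me2 of 4.86 and 8.32 in hDE, 3.16 in hAFE and no peak in hPFE, and H3K27ac only in hDE (13.9 and 18.4). HHEX, an early anterior endoderm regulator, was acetylated only in hDE (12.7 and 16.6). GATA6, another endoderm marker, went the other way for H3K4me2, with peaks in both foregut libraries but not in both hDE libraries. H3K27ac at GATA6 was not limited to hDE, and its values are given further below. ISL1, a pharyngeal regulator, was acetylated only in foregut, at 6.59 and 3.89 in hAFE and 7.15 and 5.80 in hPFE. Its H3K27me3 was found in hDE (6.21 and 9.29) and in no foregut library. EOMES, SOX17 and HHEX had the reverse, with H3K27me3 in every foregut library and in neither hDE library. PTPRC, a pan-leukocyte gene, had no peak of any mark. The neural regulators PAX6 and SOX1 and the mesoderm and blood regulators HAND1 and TAL1 had H3K4me2 in all 4 libraries beside H3K27me3 and without H3K27ac. Presence of H3K4me2 at such genes therefore did not tell one cell type from another.

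The gained gene ends were 0.651% of 19974 protein-coding genes, or 2.46% of the 5285 that were unmarked in both hDE libraries. The lost ones were 0.961% of all and 1.41% of the 13626 marked in both hDE libraries. A further 12914 genes were marked in all 4 libraries, 4534 in none and 2204 in another pattern, of which 621 had a peak in 1 foregut library alone and 487 in 1 hDE library alone. The peaks behind the calls were weak. The median deposited −log10 p at gained ends was 4.36 in hAFE and 4.33 in hPFE, against 9.57 and 10.1 at genes marked in all 4. At lost ends it was 4.63 and 5.65 in hDE, against 10.9 and 12.0. When only peaks with a −log10 p of at least 5 were counted, 18 of the 130 gained and 61 of the 192 lost genes were called again.

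The 1 kb window also set some calls. At 52 gained and 87 lost genes a peak of the other group lay between 1 and 2.5 kb from an end. NCBP2L, ITSN1 and GTPBP6 were gained with an hDE peak 1001, 1002 and 1005 bp away. GRXCR2 and CALHM6 were lost with a foregut peak 1007 and 1012 bp away. At the other limit, the weakest peak of ACER1, CHD9NB and SBK2 had a −log10 p of 2.01, just above the lowest value in the lists.

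Of 483 genes in 19 lists of pathways and cell types, 4 were gained at an end and 17 were lost, while 330 were marked in all 4 libraries. Over all 19974 protein-coding genes the shares were 0.651% gained and 0.961% lost. The gained count of the lists was thus near the share over all genes, and the genes below are described singly. The gained genes were CLDN4, TNNT2, CDH2 and HOXB1. Fold enrichment at CLDN4 was 6.31 in hAFE and 9.34 in hPFE. Its H3K27ac was present in all 4 foregut libraries (12.2 and 4.30 in hAFE, 13.5 and 16.6 in hPFE) and in hESC (4.28 and 5.03), and was missing in both hDE libraries. HOXB1, an anterior HOX gene of the hindbrain and a retinoic acid target, had 3.50 in hAFE and 3.77 in hPFE. Its H3K27me3 was 12.4 and 20.8 in hESC, 5.43 and 7.96 in hDE and 6.87 in hAFE, with no peak in either hPFE library. CDH2, which encodes N-cadherin, had 3.40 and 4.37 in foregut, and TNNT2, cardiac troponin T, had 5.43 and 5.75. H3K27ac was present in both hDE libraries at CDH2 (14.8 and 17.3), and in all 8 H3K27ac libraries at TNNT2. All 4 gained genes also had H3K4me2 in both hESC libraries, so hDE alone lacked the call.

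The lost list genes covered endoderm, pluripotency and Polycomb-marked regulators. GATA4, an endoderm and heart regulator, had 6.91 and 6.24 in hDE. Its H3K27ac stood in hDE alone (9.35 and 7.47), and its H3K27me3 was 10.7 and 20.4 in hESC, missing in hDE, 6.63 in hAFE and 5.89 and 8.43 in hPFE. Of the libraries here, hDE was thus the one stage with GATA4 acetylated and free of an H3K27me3 peak. LEFTY1, an inhibitor of Nodal, had 5.85 and 7.88 in hDE, and was acetylated only there (12.0 and 16.5). NANOG and POU5F1, core pluripotency factors, had 3.41 and 4.59, and 4.46 and 2.92. H3K27ac at NANOG was 4.51 and 7.60 in hDE and 3.21 and 1.99 in hPFE, and at POU5F1 it was found in hESC only (8.91 and 6.11). ESRG, a long noncoding RNA of pluripotent cells, had 5.27 and 7.92 in hDE and H3K27me3 only in foregut (2.81 in hAFE, 4.80 and 3.23 in hPFE).

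PAX8, a thyroid and kidney regulator, had 6.38 and 8.76 in hDE. HOXA10 (4.05 and 5.84), HOXC10 (4.86 and 4.17), HOXD10 (4.05 and 3.59), and HOXD3 with HOXD4, which share their peaks (4.05 and 6.67), were the lost HOX genes. Of these, HOXD3 is an anterior HOX gene. NEUROG1 had 3.70 and 5.71, and HEYL, a Notch target, 3.65 and 3.34. These 8 genes carried H3K27me3 in every library, so the H3K4me2 call was lost at genes with both marks. The remaining lost list genes were COL1A2 (a chain of type I collagen, 5.27 and 5.25), DKK4 (a WNT inhibitor, 3.65 and 7.09), EYA1 (a transcriptional cofactor of the pharynx, 5.04 and 3.98) and SOX10 (a neural crest regulator, 3.21 and 4.59). DKK4 kept H3K27ac in every library.

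**Figure D2:**
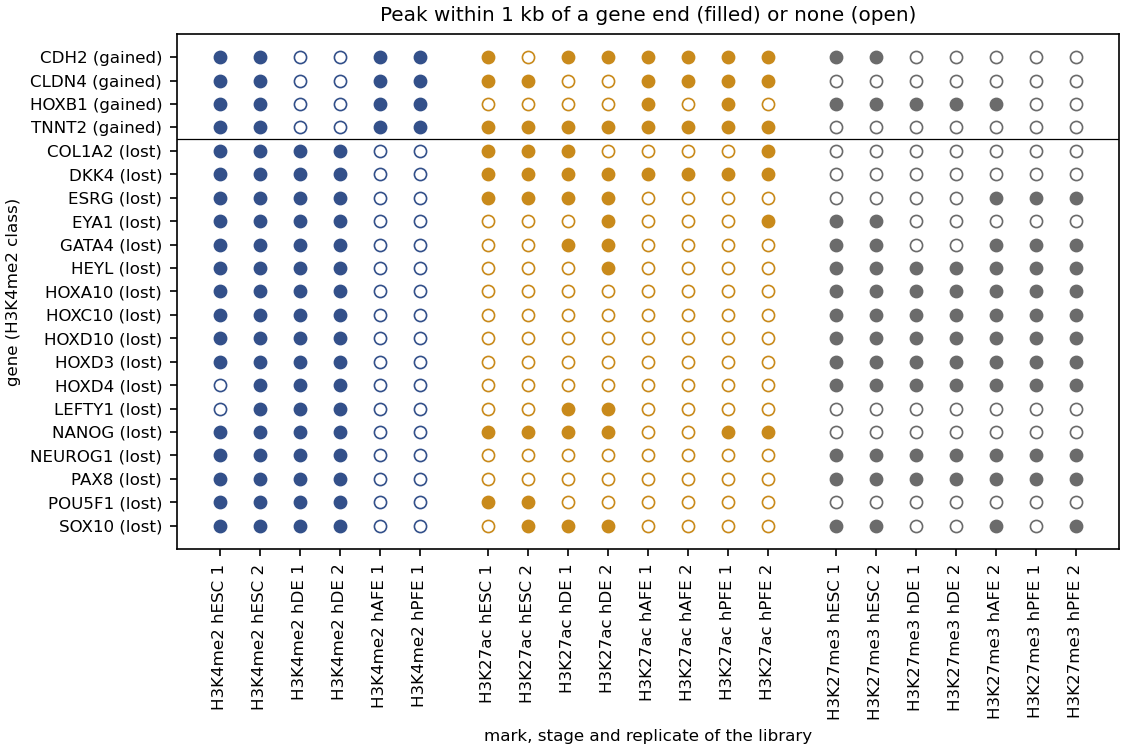
Peaks within 1 kb of an end (filled) or none (open) at the 4 gained and 17 lost genes of the lists (y axis), in each library of each mark (x axis, stage and replicate). The 4 gained genes are filled in both hESC columns of H3K4me2 as well, and 8 of the lost genes are filled in every H3K27me3 column.

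Outside the lists, 15 gained genes were named by rank. ELF5, an ETS factor of epithelia, had 4.06 in hAFE and 4.89 in hPFE, LGALS8, a galectin, 6.84 and 4.89, and KRT39, a keratin, 5.08 and 4.18. These 3 genes had H3K27ac in all 4 foregut libraries and in neither hDE library, as did RBBP8NL. GTPBP6, ITSN1 and BORCS7 had it in all 4 foregut libraries and in both hDE libraries. ACSS2 and ZSCAN31 had it in no foregut library. The H3K4me2 peaks of KRT39 lay at the gene end away from its annotated start. CLDN9, another claudin, had 3.99 and 4.40, SLC13A2, a dicarboxylate transporter, 3.74 and 4.40, and ACSS2, an acetyl-CoA synthetase, 4.26 and 3.90. The others were RBBP8NL (9.40 and 4.88), GTPBP6 (5.36 and 7.90), ITSN1 (6.07 and 5.78), PRR15L (6.09 and 4.88), BORCS7 (4.64 and 7.14), LOC124900986 (4.05 and 6.58), ZSCAN31 (4.26 and 5.34), H2BC3 (4.70 and 4.37) and GBP3 (4.17 and 4.89).

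Lost genes outside the lists were named by the same rank. CDH9 had 6.80 and 6.23 in hDE replicates 1 and 2, CCDC141 had 5.12 and 6.57, and CHAT, which makes acetylcholine, had 4.86 and 4.92. TFAP2D, an AP-2 factor, had 4.10 and 6.08. COL6A2, a collagen VI chain, had 6.13 and 4.92, and IGF2, an insulin-like growth factor, 4.38 and 4.69. PDZK1, a scaffold of membrane transporters, had 5.79 and 4.29, H3K27ac in hDE alone (9.64 and 12.0) and no H3K4me2 in hESC. KMT2C, which itself methylates lysine 4 of H3, had 5.68 and 6.82, with H3K27ac in both hDE and all 4 foregut libraries. The list went on with PLEKHG4 (5.22 and 6.23), SLC6A16 (4.86 and 5.41), IFI35 (4.83 and 5.06), RFX8 (4.46 and 6.26), C8orf90 and GTF2IRD2B.

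The calls differed in how far they held. Settings that leave a library out keep every call by construction and are not counted here. Of 6 other settings of threshold, overlap, window or list length, all 6 kept the call of LEFTY1, CDH9, CCDC141, CHAT, PDZK1, NEUROG1, ELF5, KRT39, BORCS7, RBBP8NL and ZSCAN31, and 5 kept those of CLDN4 and GATA4. PAX8, NANOG and KMT2C held under 3, CDH2 and POU5F1 under 2 and HOXB1 under 1. CDH2, TNNT2, PAX8 and KMT2C were marked in all 4 libraries when the window was 2.5 kb.

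Distal regions showed far more losses than gains. Gained regions were 1.86% and lost regions 5.57% of 166044, and 4981 regions were in all 4 libraries. A peak in 1 library alone made up 139601 regions, or 84.1%. Gained regions made up 25.0% of the 12334 that were gained or lost, and between 21.0 and 32.7% on each chromosome. The median width was 412 bp for gained, 376 bp for lost and 906 bp for constant regions. The median distance to a gene end was 14.7, 14.9 and 9.0 kb, and 70.2, 67.3 and 75.4% lay inside a gene. Changed regions also had weak peaks, with a median −log10 p of 4.07 in hAFE and 3.98 in hPFE when gained and of 4.63 and 4.55 in hDE when lost. Without the hAFE library 41251 regions met the rule for a gain, and without the hPFE library 44016 did. Without hDE replicate 1 or 2, 45187 or 37693 met that for a loss. A rule on 3 libraries is looser by construction.

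The H3K27ac libraries, which the rule did not use, separated the same stages. At gained distal regions H3K27ac was present in 10.4 and 12.3% in hDE, in 37.5 and 20.1% in hAFE and in 51.4 and 46.5% in hPFE. At lost regions it was 64.3 and 64.2% in hDE, 4.5 and 2.9% in hAFE and 5.1 and 9.5% in hPFE. Over all distal regions the shares were 17.5 and 18.0%, 7.1 and 4.0%, and 9.5 and 11.1%. The shares of the hDE and foregut libraries did not overlap in either class. Taken as a log2 ratio to the share over all distal regions, gained regions were 2.96 higher in foregut than in hDE (hDE mean −0.65 ± 0.14 SD, n = 2, foregut 2.31 ± 0.17 SD, n = 4, exact permutation test, two-sided p = 0.0667). Lost regions differed by −2.42 (means 1.85 in hDE and −0.56 in foregut, exact permutation test, two-sided p = 0.0667). That p is the smallest that 2 against 4 libraries can give. Regions in all 4 libraries also differed, by 0.86 with the same exact p.

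Both marks of a stage were called against the same input library, 1 per stage, and the part this plays was not tested. The interval on each share (Clopper-Pearson, 95%) covers counting error only, as neighbouring regions are not independent. In hESC, a stage outside the rule, H3K27ac was present at 13 and 9.9% of gained and 12.7 and 9.3% of lost regions, against 6.5 and 5.0% of all distal regions. Both classes thus lay close together and above all regions. An H3K4me2 peak in hESC replicates 1 and 2 was present at 25.9 and 24.2% of gained, 24.2 and 23.7% of lost and 12.9 and 12.6% of all distal regions. It was found in both hESC libraries at 17.6% of gained, 17.9% of lost and 90.8% of constant regions.

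**Figure D3:**
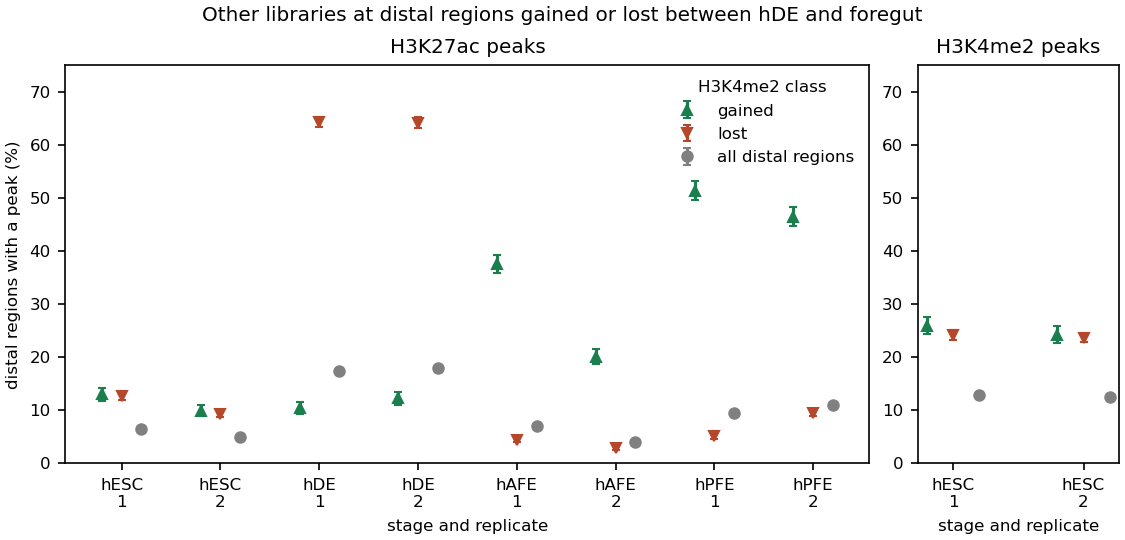
Share of distal regions (y axis, percent) with an H3K27ac peak (left) or, in hESC, an H3K4me2 peak (right) in each library (x axis, stage and replicate). Triangles pointing up are the 3081 gained regions, triangles pointing down the 9253 lost ones, circles all 166044, and bars 95% Clopper-Pearson intervals; lost regions exceed 64% in hDE and stay under 10% in foregut.

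Gene ends followed with a smaller difference for gains. H3K27ac was present at gained ends in 20.8 and 23.8% in hDE, 40.8 and 16.2% in hAFE and 60.8 and 53.8% in hPFE, so hAFE replicate 2 lay below both hDE libraries. Over all genes that library also had the lowest share (34.7%, against 50.2 to 58.6% in the other 5). Relative to all genes, gained ends were 1.04 higher in foregut on the log2 scale (exact permutation test, two-sided p = 0.133). Lost ends had 42.2 and 46.4% in hDE, 6.2 and 4.2% in hAFE and 14.1 and 15.1% in hPFE, a log2 difference of −2.10 (exact permutation test, two-sided p = 0.0667). H3K27me3 was present at 31.8 to 42.2% of lost ends in the 5 hDE and foregut libraries and at 6.2 to 15.4% of gained ends, against 14.5 to 20.0% of all genes. Replicate 1 of H3K27me3 in hDE and hPFE carries the word millipore in its file name, and whether it names another antibody is not given in the sources used here.

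Among lost distal regions, 3229 (34.9%) had no H3K4me2 in hESC, H3K27ac in both hDE libraries and none in foregut. The nearest genes with most of them were GATA6 with 12, ROR2 (a WNT receptor) with 11, FREM1 (a basement membrane protein) with 10 and TLN2 (a talin) with 9. Among gained regions, 512 (16.6%) had no H3K4me2 in hESC, no H3K27ac in hDE, and H3K27ac in hAFE and hPFE. EYA1, TTC7B and ZNF608 were nearest to 4 of these each, and KIAA1217, SHROOM3 and XBP1 to 3 each. No H3K27ac in any hDE or foregut library was found at 30.1% of gained and 26.1% of lost regions.

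Of the list genes, CDH2, GATA6 and GATA4 were nearest to most lost distal regions. Regions were assigned to the nearest protein-coding gene, which need not be the gene they act on. Near GATA6, an endoderm regulator, 18 regions were lost and none was gained, within chr18:22025283-22199146. Their fold enrichment ran from 2.63 to 4.76 in hDE replicate 1 and from 2.33 to 5.29 in replicate 2. Of the 18, 14 had H3K27ac in both hDE libraries and 0 in any foregut library, 16 lacked H3K4me2 in hESC and 12 lay in the gene. Examples are chr18:22192708-22193157 (4.10 and 5.20) and chr18:22193318-22194010 (4.09 and 5.06). The ends of GATA6 did not follow, with no peak in hDE replicate 1, 4.27 in replicate 2, 8.52 in hAFE and 7.84 in hPFE. H3K27ac there was 17.5 and 18.2 in hDE and 4.72 in hPFE replicate 1, with no peak in the other foregut libraries. At a −log10 p of at least 5, GATA6 had 5 lost regions and no gained one.

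GATA4 had 13 lost and 0 gained distal regions, with fold enrichment of 2.82 to 7.11 and 2.63 to 7.03 in hDE. Of these 9 had H3K27ac in both hDE libraries and 0 in foregut. At −log10 p of 5 or more, with regions redrawn from fewer peaks, GATA4 had 12 lost regions, and at −log10 q of 2 or more it had 10. CDH2 lost 24 and gained 2, opposite to the gained call at its end. H3K27ac was present in both hDE libraries at 15 of the 24 and in at least 1 foregut library at 7. BMP2, a BMP ligand, lost 11 and gained 1, among them chr20:6773241-6774905 (4.71 and 6.70). Smaller sets of the same direction lay near OTX2 (6 lost), KIT (5), GSC (4), LEFTY2 (3) and EOMES (2), with none gained. AUTS2 lost 26 and gained 2, the most lost regions of any gene.

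Other list genes had more gained than lost regions, though in most of their lists as many or more genes had the reverse. Genes with more gains against genes with more losses numbered 11 against 16 among the pharynx regulators, 5 against 5 in the Hedgehog list, 4 against 2 in the Notch list and 4 against 11 in the epithelium list. MEIS2, a TALE homeodomain cofactor of HOX proteins, gained 8 and lost 1. Of the 8, 6 had H3K27ac in foregut and 0 in both hDE libraries, and chr15:36882424-36883327 had 3.93 in hAFE and 5.57 in hPFE. PTCH1, the Hedgehog receptor and a target of the pathway, gained 5 and lost 0, among them chr9:95606419-95606662 (3.87 and 4.00). That region, upstream of the gene, had no H3K27ac in any hDE or foregut library. Foregut H3K27ac was found only at the gained PTCH1 regions that begin 8.5 and 4.85 kb after the annotated start. With an overlap of 200 bp, PTCH1 had 1 gained and 1 lost region. HES1, a Notch target, gained 3 and lost 0 within chr3:194129937-194131749, with 5.71 and 3.89 at the best of them. RND3, a small GTPase, gained 7 and lost 0, all 7 with H3K27ac in foregut. KIAA1217 gained 9 and lost 0, the second most gained regions of any gene after ZNF608 (10 gained, 11 lost). EYA1 gained 6 and lost 8, and its 6 gained regions lay in a stretch of 11.0 kb inside the gene, acetylated in foregut and not in hDE. GRHL2, an epithelial regulator, gained 4, TBX1, the central pharyngeal regulator, 3, ISL1 and PAX1, a pharyngeal pouch gene, 2 each, all with 0 lost. At −log10 p of 5 or more, gains fell to 4 at KIAA1217, 2 at EYA1, HES1 and GRHL2, 1 at MEIS2, PTCH1 and RND3, and 0 at TBX1.

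**Figure D4:**
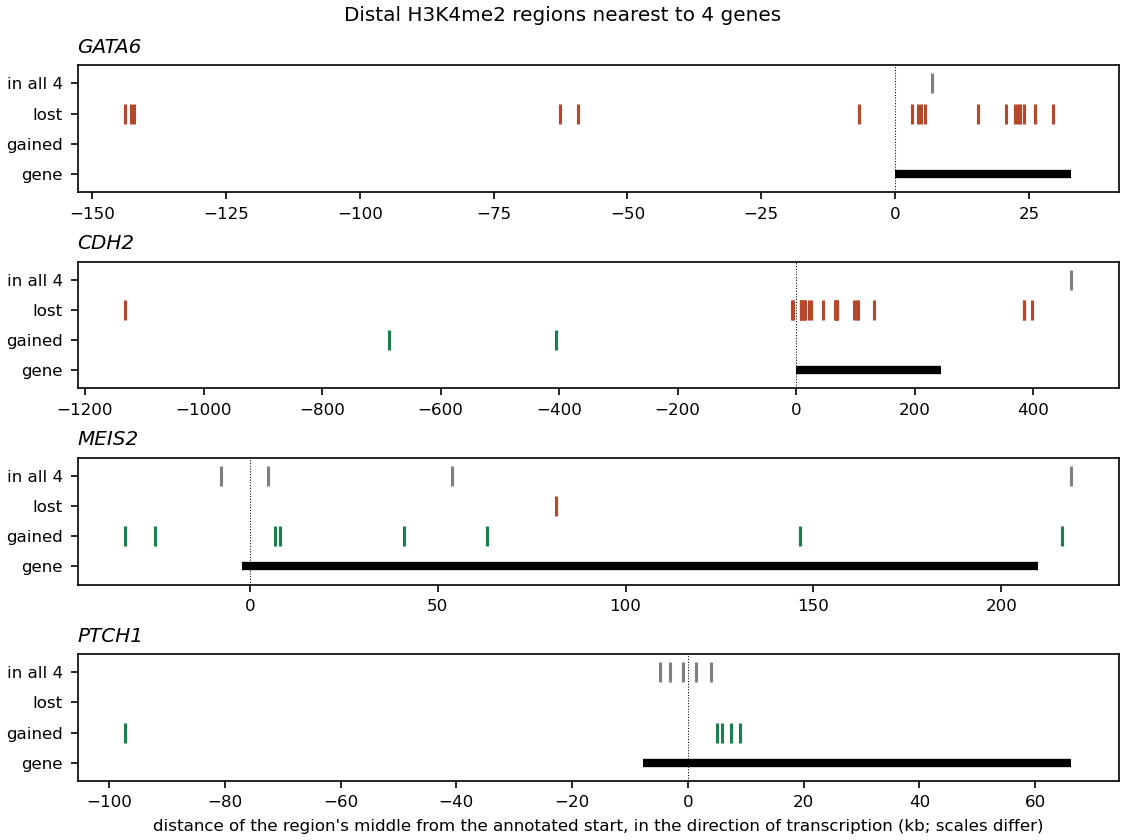
Distal H3K4me2 regions nearest to GATA6, CDH2, MEIS2 and PTCH1, by distance of the region's middle from the annotated start in the direction of transcription (x axis, kb, scales differ) and by class (y axis); the bar is the gene. GATA6 has 18 lost and no gained marks, while MEIS2 has 8 gained and PTCH1 5 gained and no lost marks.

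The lists of pathways and cell types differed in the balance of distal gains and losses, set against the 25.0% gained over all genes. The definitive endoderm list had 7 gained and 93 lost regions, 7.0% gained (95% interval 2.86 to 13.9), and stayed between 7.0 and 10.0% under every setting tried. Of its losses, GATA6 gave 18, GATA4 13 and MANEA 12. At −log10 p of 5 or more the list had 8.57% (3 and 32), beside 15.7% for all genes, so the gap was smaller there. Primitive streak genes had 8.33% (2 and 22), neural genes 9.68% (3 and 28) and pluripotency genes 18.0% (9 and 41). At −log10 p of 5 or more the primitive streak share was 15.4% (2 and 11), beside 15.7% for all genes. The anterior foregut and pharynx regulators had 50 gained and 58 lost, 46.3% (36.7 to 56.2). That share ran from 27.3 to 54.0% across settings, lowest for regions outside gene bodies, where all genes had 23.3%. Among pathways, Notch had 61.1% gained (11 and 7), retinoic acid 51.6% (16 and 15) and Hedgehog as many gained as lost (15 and 15). The Hedgehog share dropped to 23.1% at −log10 p of 5 or more and to 22.2% outside gene bodies, beside 15.7% and 23.3% for all genes. Retinoic acid dropped to 30.0% (3 and 7) at −log10 p of 5 or more and to 33.3% (5 and 10) both at −log10 q of 2 or more and with an overlap of 200 bp. Notch had 45.5% (5 and 6) at −log10 p of 5 or more and 44.4% (4 and 5) at 200 bp, so both then had more losses than gains. All genes had 15.7% at −log10 p of 5 or more, 16.9% at −log10 q of 2 or more and 25.6% at 200 bp. FGF had 30.4% (17 and 39), Nodal and BMP 22.7% (17 and 58) and WNT 20.6% (7 and 27).

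Lists for other cell types stood near or below the share of all genes. They were 34.8% for thymus, parathyroid and thyroid (8 and 15), 31.2% for lung, oesophagus and stomach (5 and 11), 28.1% for epithelium (9 and 23) and 23.5% for liver, pancreas and intestine (4 and 13). Neural crest and mesenchyme had 19.0% (11 and 47), of which CDH2 alone gave 24 of the losses, and mesoderm with heart and blood 16.0% (4 and 21). HOX genes of the later paralogue groups had 5 lost and 0 gained, and housekeeping genes 9 lost and 0 gained. Regions of 1 gene share their locus, so the intervals cover counting error only and are too narrow to compare lists.

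**Figure D5:**
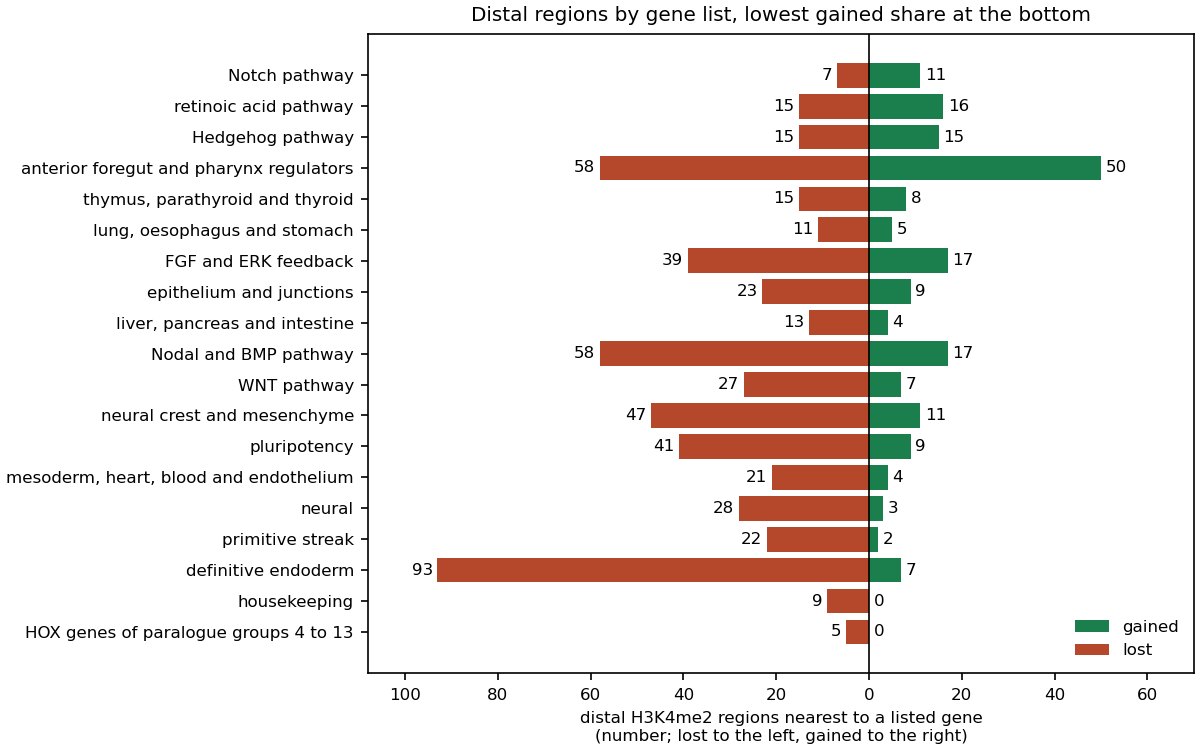
Number of lost (left bars) and gained (right bars) distal regions nearest to the genes of each of 19 lists (y axis, lowest gained share at the bottom). The definitive endoderm list has 93 lost and 7 gained regions, the anterior foregut and pharynx regulators 58 and 50, and the Notch pathway 7 and 11.

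The single regions with the best ranks named other genes. The best gained region lay in SCUBE3 (chr6:35216282-35217181, 6.04 in hAFE and 7.46 in hPFE). A region in FHIP1A (chr4:151459161-151459947, 5.36 and 6.11) had H3K27ac in all 4 foregut libraries and in no hDE or hESC library. The best lost region lay in VRTN (chr14:74348903-74349856, 9.06 and 10.8), followed by one in KCNK12, a potassium channel gene (chr2:47565539-47568875, 7.60 and 9.06). All 10 best lost regions had H3K27ac in both hDE libraries, as did 57.0% of all lost regions. Among the 10, the region in ARHGAP31 also had it in both hAFE libraries and hPFE replicate 2, and that in MED13L in hPFE replicate 2. MED13L, a Mediator subunit gene, was nearest to 1 of the 10 best gained and 1 of the 10 best lost regions.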

How the data were processed

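ChIP-seq peaks of H3K4me2 in H1-derived hDE (2 libraries), hAFE (1) and hPFE (1) were compared, with 17 other peak lists for context. Per the submitters' processing notes the build is hg38. Per the deposited file names, peaks were called per library against its stage's input, on sorted alignments without duplicates, at a p of 0.01 and with at most 500 K peaks. The aligner and peak caller were not given in the sources used here. The deposited narrowPeak files give the authors' fold enrichment (a ratio), −log10 p, −log10 q and an integer score per peak, used only within 1 list. The score was not used further. Fold values in the text are those of the strongest peak by −log10 p. For hESC, H3K27ac and H3K27me3 came from an earlier deposit per the labels, so batch and stage cannot be told apart there.

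Overlapping peaks of a library were merged, and at least 1 bp of overlap counted. The gene table, promoters and microRNAs are RefSeq on GRCh38.p14. The gene table gives no strand, so both gene ends were used. Of the promoters 15812 and of the 55 called microRNA genes 54 were matched. Motifs searched on both strands were TGTTTAC or TGTTTGC for FOXA factors, AGATAAG for zinc-finger GATA factors, AGGTGTGA for T-box, GTCTAGAC for SMAD, ACAATGG for SOX, GGATTA for OTX, TTAATNATT for HNF1, ATGCAAAT for octamer, TGANTCA for AP-1, GGAATG for TEAD, TGACAG for MEIS, CACTTAA for NKX2, TAATTA for homeodomain, AGGTCA for nuclear receptor and AACCGGTT for GRHL proteins. TAATTA can overlap TTAATNATT. Named were the list genes gained or lost at an end, the 15 best-ranked genes per direction outside the lists (some named items are not reported here), the 10 best-ranked distal regions per direction and the genes nearest to most regions, ranked by the worse of both libraries' ranks. Members and lists were chosen with earlier results of these data known. A region or gene passed no filter on low values other than the deposited threshold. Python 3.11.15, numpy 2.4.6, pandas 2.3.3, scipy 1.17.1 and matplotlib 3.10.9 were used, and the calling was tested on simulated data.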

Additional observations from a re-analysis of the deposited data

How the results depend on the processing

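Counts of gained and lost gene ends or distal regions moved with several settings. Peaks of −log10 p of 5 or more gave 308 lost ends, 560 gained and 3016 lost distal regions, and −log10 q of 2 or more gave 846 and 4155 distal regions. An overlap of 200 bp gave 1222 and 3549, and regions outside gene bodies 918 and 3022. A 500 bp window gave 260 gained ends, all annotated genes gave 427 gained and 758 lost ends, and windows at the annotated start only, added after seeing the data, gave 81 and 118. The main values were 130, 192, 3081 and 9253. Leaving out each library in turn gave 227 to 448 gained ends, 369 to 502 lost ends, 3586 to 44016 gained and 10459 to 45187 lost distal regions, since 3 libraries make a looser rule. Gained ends were 227 and 335 without hDE replicates 1 and 2, 448 without hAFE and 433 without hPFE, and lost ends 502, 369, 464 and 440. The gained share of changed distal regions, with settings added after seeing the data, was 4.17% for pluripotency at −log10 p of 5 or more and 0.0% at −log10 q of 2 or more. The difference in Jaccard index kept its sign under 3 other thresholds or list lengths (0.0618 to 0.0709). The H3K27ac differences kept their direction when a library was left out, at 2.15 to 2.57 for gained and −2.50 to −1.37 for lost distal regions, and 0.38 to 0.91 and −2.00 to −1.04 at ends. No paired analysis was possible because each foregut stage has replicate 1 only, so the groups share fewer than 2 replicate numbers. Depth is unknown, and weak peaks limit all calls.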

Other observations

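Some gained distal regions had been marked before hDE. Of the 3081 gained regions, 541 had H3K4me2 in both hESC libraries, among them 3 near FOXP1 and 2 each near SOX2, GRHL2, HES1 and RARB, a retinoic acid receptor gene. Of the 9253 lost regions, 1656 had H3K4me2 in both hESC libraries, with 6 each near EN1, MYC, PAX2 and CNTNAP2, and 5 near EYA1.

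The bins of 1 Mb with most changed regions were picked for their counts, with no test of clustering. The bin of 1 Mb that starts at 11 Mb of chromosome 8, which holds GATA4, had 21 lost and 0 gained regions, and the bin at 14 Mb of chromosome 9 had 21 and 1. The bins at 22 Mb and 28 Mb of chromosome 18, beside GATA6 and CDH2, had 20 lost regions each, with 1 and 2 gained. The bin at 8 Mb of chromosome 1, beside RERE, had 12 gained and 11 lost regions, and the bin at 150 Mb of chromosome 2, beside RND3, had 8 gained and 0 lost.

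Of 18177 long noncoding RNA genes, 221 were gained (1.22%), 369 lost (2.03%) and 3841 marked in all 4 libraries. Of 19974 protein-coding genes 12914 were marked in all 4, so the shares that could be called differ and no comparison was made. Of 443 tRNA genes 13 were lost and 0 gained, and of 1196 snoRNA genes 12 were lost and 0 gained. Such genes can share the window of a protein-coding neighbour, and its part in these counts was not tested.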
